A study of Homo sapiens with 6 samples.

Results

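The p53 target genes described here are 31 genes of the p53 pathway, grouped here under feedback, cell cycle arrest, DNA repair, metabolism, and survival and signalling. Its main apoptosis genes and its sestrins were left out. They were taken by symbol from the deposited count table, and all 31 were found among its 25445 rows. The RNA came from the human liver cancer line MHCC-97H, which derives from a hepatocellular carcinoma. Cells received 6j, a synthetic compound built on the alkaloid sophoridine, at 10 μM for 16 h (6j treated), or solvent alone for the same time (non-treated, although a label of these libraries gives their treatment as none). There were 3 libraries per group, numbered 1 to 3 in each, and neither the labels nor the methods say whether a number marks a separate culture, so p-values measure the spread between these libraries, which may be technical. The total count ranged from 31533403 to 38018349 per library. Of 10 hepatocyte markers, only the keratin genes KRT8 and KRT18 lay above 1 CPM (counts scaled to a library of 1000000), while ALB, APOA1, TTR and 4 others averaged under 0.1 CPM, so RNA of the secreted proteins that define hepatocytes was near or at 0. Of markers of other cell types, 1 of 4 immune (CD68), 1 of 3 endothelial (CDH5) and 2 of 4 fibroblast genes (COL1A1 and PDGFRB) lay above 1 CPM, and PTPRC, CD3E and COL1A2 were at 0. The summed level of the hepatocyte markers, almost all of it keratin, was 904 to 1109 CPM in non-treated and 705 to 824 CPM in 6j treated cells, and its part in the results was not tested. The question asked of these genes is which of them rose, and whether the others of the pathway rose with them.

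The transcription factor p53 is held low by the ubiquitin ligase MDM2 and its partner MDM4, is stabilised after DNA damage and other stress, and then switches on a shared set of genes. CDKN1A, which encodes the cyclin-dependent kinase inhibitor p21, stops the cell cycle, and MDM2, PPM1D and CCNG1 are targets that feed back on p53 itself. Several targets also answer to other stress factors, and GADD45A and CDKN1A are known to rise without p53 in some settings. In hepatocytes and liver cancer, p53 is best known for arrest, senescence and metabolic control.

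The DNA letters that p53 reads were looked up first. A p53 half-site is 10 bases long, a full site joins 2 half-sites with a spacer of at most 13 bases, and the pattern reads the same on both strands. Windows from 250 bases before to 50 bases after a RefSeq gene start (GRCh38.p14) were available for 27 of the 31 genes, and none was available for GADD45A, PHLDA3, RRM2B and TP53INP1. A perfect half-site stood in the window of 5 of the 27 genes (18.5%), against 8.06% of all 27305 genes with a window. A perfect full site stood in DDB2 alone among these genes, against 0.0366% of all genes, and allowing 1 mismatch per half-site outside its 4-base core added no other member. The letters TGATGNAA, a core of sites bound by ATF4 with C/EBP factors, stood in GADD45G and PLK3 on either strand (4.46% of all genes), and TGACGTCA, the cyclic AMP response element, in PPM1D (2.25% of all genes). The matches are shown in capitals with the bases around them, 5′ to 3′ on the strand of the gene, because they set the genes with p53 letters at their start beside the genes that changed. All 5 stretches lie in annotated exons of GENCODE version 29.
DDB2 full site (chr11:47214979-47214999, plus strand): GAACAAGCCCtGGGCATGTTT
PLK2 half-site (chr5:58460204-58460223, minus strand): ggacaAGACTTGCTTcccgg
AEN half-site (chr15:88621301-88621320, plus strand): gagccGGGCTTGCCCgggca
FDXR half-site (chr17:74872991-74873010, minus strand): ggagcGGGCTTGCCCtgcgg
RPS27L half-site (chr15:63157522-63157541, minus strand): agagcAGACAAGCCCgcccc
A match of letters is a description and not a bound site, and sites outside these windows, such as those of CDKN1A far upstream, were not searched.

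GADD45A and CDKN1A rose in 6j treated cells, and TP53I3 and PLK2 fell. The remaining genes did not pass the main test of edgeR over all rows, which did not use the replicate number. A filter on low counts left 28 of the 31 genes. At an adjusted p-value under 0.05, 2 of the 28 were higher and 2 lower, together 14.3%, against 9.16% of all 15957 rows tested. Of all rows, 4.79% passed in the higher and 4.37% in the lower direction. With a fold change above 1.5 as well, the criterion for differentially expressed genes (DEGs), GADD45A and CDKN1A were called higher (2.48% of all rows) and TP53I3 lower (1.12% of all rows), together against 3.60%. The median log2 fold change was 0.096 over the 28 genes and 0.0046 over all rows, with 16 genes higher and 12 lower. The 3 libraries of one group lay apart from the 3 of the other for 8 genes that were higher and 3 that were lower (39.3%), against 31.7% of all rows. The count at an adjusted p under 0.05 fell to 1, GADD45A, without non-treated replicate 1 or without 6j treated replicate 2, and to 2 without non-treated replicate 2 or 3. It was 11 with the replicate number as a block, a fit that compares libraries of the same number, 7 higher (13.1% of all rows) and 4 lower (13.9%), where 26.9% of all rows passed, and 3 of the 11 also passed the fold threshold, against 6.47% of all rows. In bulk RNA, a change in level per cell and a change in the share of cells that make a transcript cannot be told apart.

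**Figure D1:**
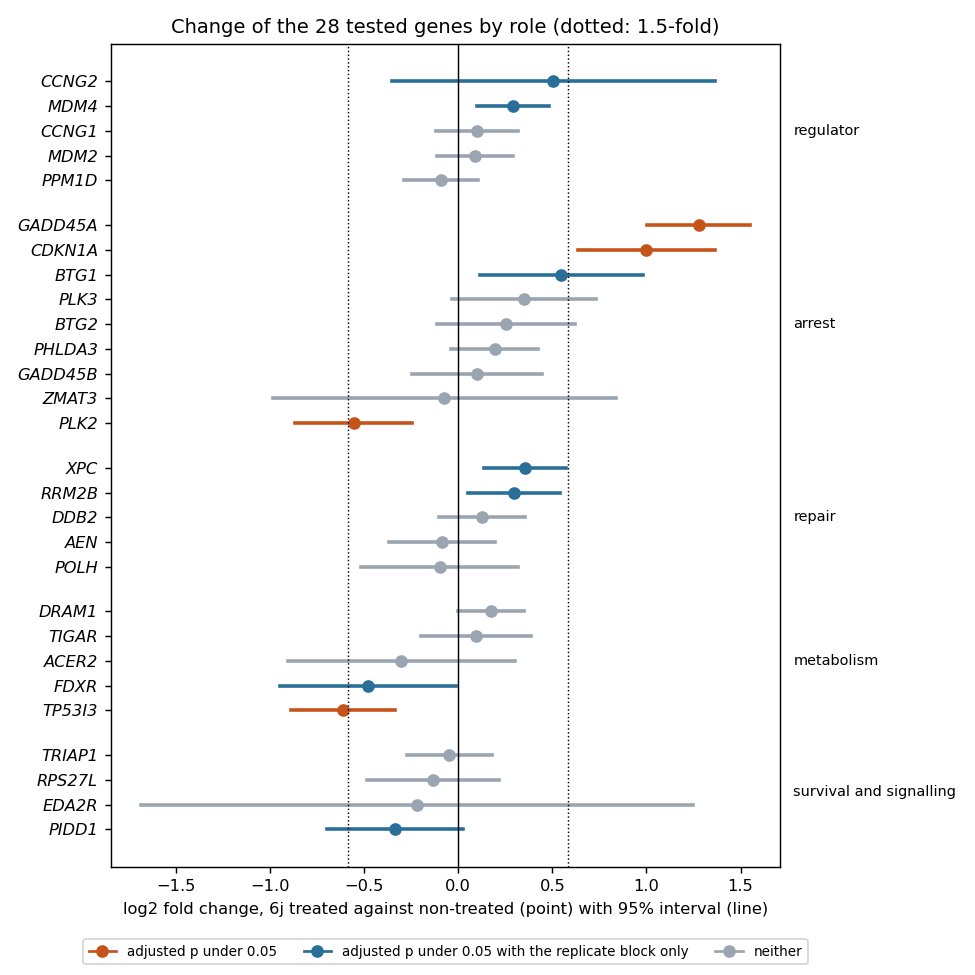
The log2 fold change of each of the 28 tested genes in 6j treated against non-treated cells is plotted on the horizontal axis with its 95% interval from edgeR, grouped by role, with dotted lines at a 1.5-fold change. GADD45A and CDKN1A lie wholly right of the upper dotted line, while the intervals of MDM2, PPM1D and CCNG1 include 0 and stay inside both dotted lines.

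Among the regulators, MDM2 is the gene most often read as a sign of p53 activity, since p53 drives it directly. MDM2 (ENSG00000135679, chromosome 12, 68808176 to 68850686) was at 96.1, 94.0 and 110 CPM in replicates 1, 2 and 3 of the non-treated group and at 105, 102 and 113 CPM in the 6j treated replicates. The groups overlapped. Its log2 change was 0.090 (edgeR adjusted p = 0.579, standard error 0.09), and the 95% interval ran from 0.926-fold to 1.22-fold, so that a 1.5-fold rise lay outside it. Its exons overlap those of a carboxypeptidase gene on the opposite strand, and whether the counting used strand is not given in the sources used here.

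PPM1D and CCNG1 did not pass the test either. PPM1D, which encodes the phosphatase WIP1 that switches the p53 response off, was at 34.6, 33.1 and 36.3 CPM in non-treated and 32.2, 32.7 and 32.8 CPM in 6j treated cells. Its 6j treated libraries all lay below the non-treated ones, by a log2 fold change of −0.092 that did not pass the test (edgeR adjusted p = 0.561). CCNG1, the gene of cyclin G1, which recruits a phosphatase to MDM2, was at 146 ± 14.1 and 157 ± 11.6 CPM (SD, n = 3 each), and its log2 fold change was 0.099 (edgeR adjusted p = 0.566). The 95% intervals were 0.819 to 1.08-fold for PPM1D and 0.922 to 1.24-fold for CCNG1. MDM4, whose product blocks the activation domain of p53, was higher in every 6j treated library, at 77.3, 86.8 and 78.6 CPM against 68.5, 68.2 and 61.6 CPM. This log2 fold change of 0.29 missed the threshold (edgeR adjusted p = 0.0626) and passed it under a replicate block (adjusted p = 0.00562).

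CCNG2, the gene of cyclin G2, an arrest protein that is best known as a FOXO target, followed the replicate number. It was at 25.3, 26.4 and 45.0 CPM in replicates 1, 2 and 3 of the non-treated group and at 32.4, 40.1 and 64.6 CPM in the 6j treated ones. Replicate 3 was the highest of both groups, and the groups overlapped. The log2 fold change of 0.50 did not pass without a block (edgeR adjusted p = 0.429). Within each replicate number the 6j treated library was higher, by 0.36, 0.60 and 0.52 on the log2 scale, and the gene passed under a replicate block (adjusted p = 0.0011). TP53INP1, a stress-induced cofactor gene, had 3, 2 and 6 counts in non-treated and 0, 3 and 0 in 6j treated cells and was too low to test.

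The arrest genes held both rises. GADD45A (ENSG00000116717, chromosome 1, 67685061 to 67688338) encodes a small stress protein that binds p21, PCNA and the kinase CDK1 and takes part in arrest at G2/M. It was at 17.7, 20.5 and 19.9 CPM in replicates 1, 2 and 3 of the non-treated group and at 42.3, 54.0 and 44.3 CPM in the 6j treated ones. All 6j treated libraries lay above all non-treated ones, with little spread inside either group. The log2 change was 1.28 (edgeR adjusted p = 0.00129, standard error 0.12), which is 2.42-fold with a 95% interval from 2.01 to 2.92. GADD45A ranked 22 by p-value among the 15957 rows, and it passed when any 1 library was left out, with log2 fold changes from 1.16 to 1.35.

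CDKN1A (ENSG00000124762, chromosome 6, 36676460 to 36687339) was at 78.0, 85.9 and 85.9 CPM in replicates 1, 2 and 3 of the non-treated group and at 123, 183 and 194 CPM in the 6j treated ones. The groups did not overlap, and 6j treated replicate 1 was the lowest of its group. Its log2 change was 1.00 (edgeR adjusted p = 0.0113, standard error 0.16), with a 95% interval from 1.55-fold to 2.57-fold. The rise within replicate numbers was 0.65, 1.09 and 1.17 on the log2 scale. CDKN1A was not called without non-treated replicate 1 (edgeR adjusted p = 0.0642) or without 6j treated replicate 2 (edgeR adjusted p = 0.0633).

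GADD45A and CDKN1A were set beside MDM2 as the log2 CPM of each gene minus that of MDM2 in the same library. The genes were chosen with their changes known, so these differences restate the changes above and are no separate evidence. The difference for GADD45A rose by 1.18, from −2.37 ± 0.148 to −1.19 ± 0.242 (SD, n = 3 each, two-sided exact permutation test, p = 0.1). For CDKN1A it rose by 0.88, from −0.26 ± 0.120 to 0.62 ± 0.346 (SD, n = 3 each, two-sided exact permutation test, p = 0.1). A p of 0.1 is the smallest that this test allows with 3 libraries against 3. In both cases the 6j treated library was above the non-treated one in all 3 replicate numbers, by 1.12, 1.28 and 1.12 for GADD45A and by 0.52, 0.98 and 1.14 for CDKN1A.

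**Figure D2:**
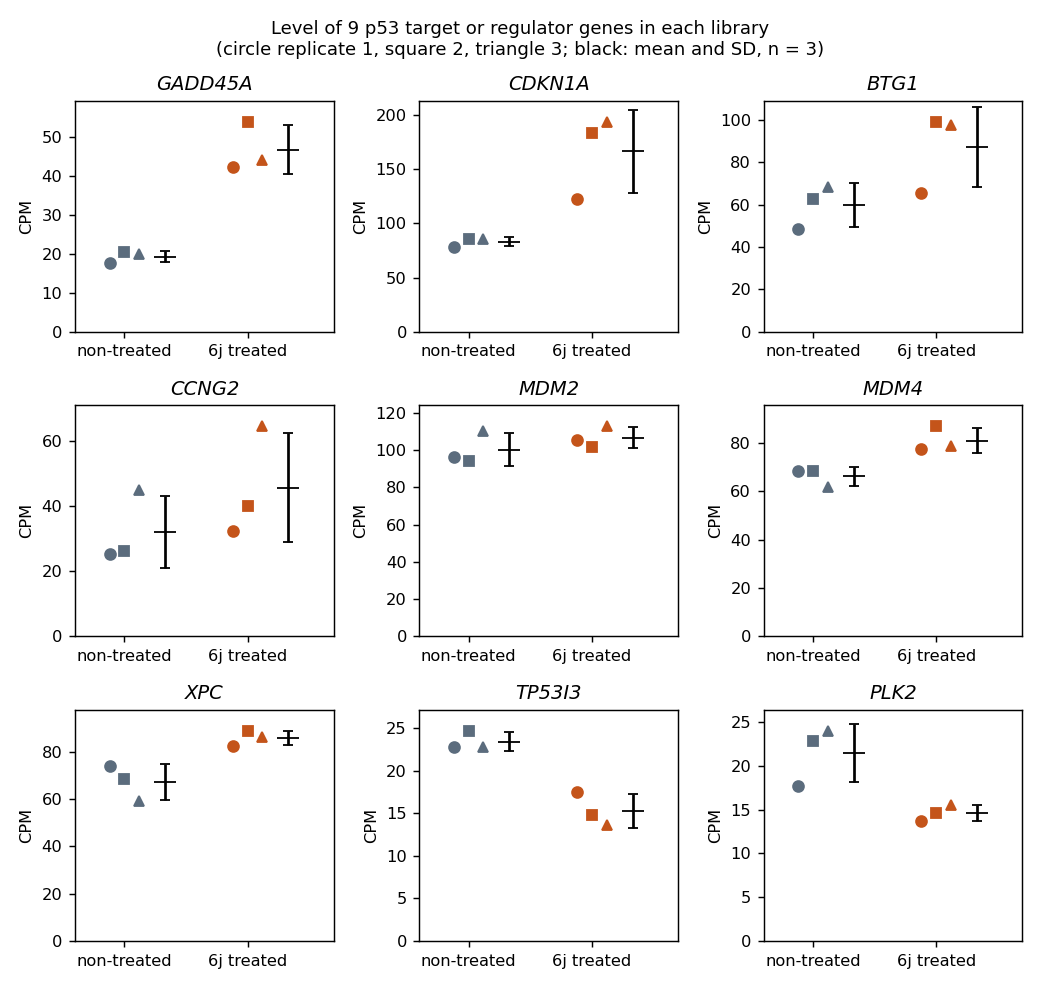
Each panel plots the level of a gene in CPM (vertical axis from 0) in the 3 non-treated and the 3 6j treated libraries, with symbols for the replicate number and a black bar for the mean and SD (n = 3). The groups are apart for GADD45A, CDKN1A, MDM4, XPC, TP53I3 and PLK2 and overlap for MDM2, BTG1 and CCNG2.

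Of the close relatives of GADD45A, GADD45B did not pass and GADD45G was not detected. GADD45B was at 14.6, 18.9 and 14.2 CPM in non-treated and 14.7, 17.7 and 18.6 CPM in 6j treated cells, a log2 fold change of 0.099 (edgeR adjusted p = 0.734) with a 95% interval from 0.844 to 1.36-fold. GADD45G had 0 counts in every library, which allows up to 3 counts in each. Of the antiproliferative BTG genes, whose products help to shorten mRNA tails, BTG1 was at 48.3, 62.9 and 68.3 CPM in replicates 1, 2 and 3 of the non-treated group and at 65.7, 99.2 and 97.6 CPM in the 6j treated ones. Replicate 1 was the lowest of both groups. The log2 fold change of BTG1 was 0.55 (edgeR adjusted p = 0.112), and it passed under a replicate block (adjusted p = 0.000157) and without 6j treated replicate 1 (edgeR adjusted p = 0.0236). BTG2, the member of this pair that p53 is known to drive, was at 15.4 ± 3.08 and 18.4 ± 1.92 CPM (SD, n = 3 each, edgeR adjusted p = 0.371).

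PLK2 (ENSG00000145632, chromosome 5, 58453982 to 58460260), a polo-like kinase gene that p53 is known to activate and that carries the half-site shown above, fell. It was at 17.7, 22.8 and 24.0 CPM in non-treated and 13.7, 14.6 and 15.6 CPM in 6j treated cells, with no overlap. The log2 change was −0.56 (edgeR adjusted p = 0.0393, standard error 0.14), and the adjusted p lay between 0.0521 and 0.137 when any 1 library was left out. Its fold change was under the 1.5-fold threshold. Its relative PLK3, whose exons overlap TCTEX1D4 on the opposite strand, was at 6.07 ± 0.584 and 7.74 ± 0.821 CPM (SD, n = 3 each), higher in every 6j treated library, but did not pass (edgeR adjusted p = 0.228). The AKT inhibitor gene PHLDA3 lay between 23.0 and 27.9 CPM in non-treated and between 29.1 and 29.9 CPM in 6j treated cells (edgeR adjusted p = 0.278). ZMAT3, which encodes an RNA-binding protein of the p53 response, was at 148, 131 and 236 CPM in replicates 1, 2 and 3 of the non-treated group and at 132, 122 and 236 CPM in the 6j treated ones. Replicate 3 was again the highest of both groups, and within each number the 2 libraries differed by at most 0.16 on the log2 scale.

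None of the 5 genes of DNA repair passed the main test, which had no block and which 9.16% of all rows passed. Under the replicate block 2 of the 5 passed (40%, against 26.9% of all rows). XPC, the damage sensor of global nucleotide excision repair, was at 74.3, 68.6 and 59.1 CPM in non-treated and 82.7, 88.9 and 86.3 CPM in 6j treated cells. Its groups did not overlap, and the log2 fold change of 0.35 lay close to the threshold (edgeR adjusted p = 0.0521, 0.005 under the replicate block), and it passed when the filter on low counts was left out (0.0395) or asked for at least 1 CPM in 3 libraries (0.0453). RRM2B, a ribonucleotide reductase subunit gene that supplies nucleotides for repair, was at 35.7, 31.9 and 39.6 CPM in non-treated and 43.6, 40.7 and 47.4 CPM in 6j treated cells. This log2 fold change of 0.30 had an adjusted p of 0.119 in edgeR and of 0.0121 under the replicate block. DDB2, which works beside XPC and holds the full site shown above, was at 30.1, 31.2 and 35.8 CPM in non-treated and 34.0, 34.4 and 37.5 CPM in 6j treated cells. The groups of DDB2 overlapped, and its change of 0.12 on the log2 scale (95% interval 0.931 to 1.28-fold, edgeR adjusted p = 0.487) left a 1.5-fold rise outside the interval. The translesion polymerase gene POLH (35.6 ± 7.54 and 33.3 ± 6.91 CPM) and the nuclease gene AEN (80.1 ± 7.45 and 75.5 ± 12.5 CPM, SD, n = 3 each) had adjusted p-values of 0.785 and 0.716 in edgeR. AEN was placed with the repair genes for this grouping only, and a role of it in repair was not tested. Some exons of XPC and POLH overlap genes on the opposite strand.

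The genes of metabolism held a fall. TP53I3 (ENSG00000115129, chromosome 2, 24077433 to 24085861), also known as PIG3, encodes a quinone oxidoreductase and is a classical p53 target. It was at 22.8, 24.7 and 22.8 CPM in non-treated and 17.5, 14.9 and 13.6 CPM in 6j treated cells. Every 6j treated library lay below every non-treated one. The log2 change was −0.61 (edgeR adjusted p = 0.0193, standard error 0.12), a 1.53-fold lower level, and the adjusted p was between 0.0528 and 0.0966 without non-treated replicate 1, 2 or 3 or 6j treated replicate 2. Exons of FAM228B overlap it on the opposite strand.

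FDXR, the gene of ferredoxin reductase, which passes electrons to mitochondrial cytochromes, had a lower mean in 6j treated cells with more spread. It was at 12.8, 13.2 and 16.9 CPM in non-treated and 9.60, 7.86 and 13.4 CPM in 6j treated cells. The groups overlapped, and its log2 fold change of −0.48 did not pass (edgeR adjusted p = 0.183). It passed under the replicate block (adjusted p = 0.0121), and without a block when 6j treated replicate 3 was left out (edgeR adjusted p = 0.0485). DRAM1, a lysosomal membrane protein gene of autophagy, was at 82.4 ± 5.19 and 92.9 ± 1.5 CPM (SD, n = 3 each) with no overlap between groups and an adjusted p of 0.197 in edgeR. TIGAR, a fructose bisphosphatase gene that shares exons with AC008012.1 on its own strand, was at 19.2 ± 2.44 and 20.5 ± 1.71 CPM (SD, n = 3 each, edgeR adjusted p = 0.701). The ceramidase gene ACER2 was low, at 4.16 ± 0.652 and 3.37 ± 1.04 CPM (SD, n = 3 each, edgeR adjusted p = 0.529), and SPATA18, a gene of mitochondrial quality control, had 0 counts in every library.

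The 4 remaining genes, of survival and signalling, had log2 fold changes from −0.34 to −0.048, and none passed the test without the block. PIDD1, a death domain scaffold gene whose exons overlap RPLP2 on the opposite strand, was at 26.4, 20.5 and 23.1 CPM in non-treated and 21.9, 14.7 and 18.8 CPM in 6j treated cells. PIDD1 was lower within each replicate number and did not pass without the block (edgeR adjusted p = 0.221). It passed in edgeR with the block (adjusted p = 0.0213) and not in DESeq2 with the block (adjusted p = 0.0569). RPS27L, a ribosomal protein gene that carries a half-site shown above, was at 50.3 ± 7.02 and 45.8 ± 8.89 CPM (SD, n = 3 each), and TRIAP1, a survival gene, at 38.3 ± 3.68 and 37.1 ± 1.77 CPM (SD, n = 3 each). EDA2R, a receptor gene of the tumour necrosis factor receptor family, stayed under 1 CPM in every library. Of the 5 genes with a half-site in their window, PLK2 alone had an adjusted p under 0.05 without a block, against 9.16% of all rows. With the block PLK2 and FDXR passed, against 26.9% of all rows, and both were lower. Counts among 5 genes are too small to set apart from these shares.

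**Figure D3:**
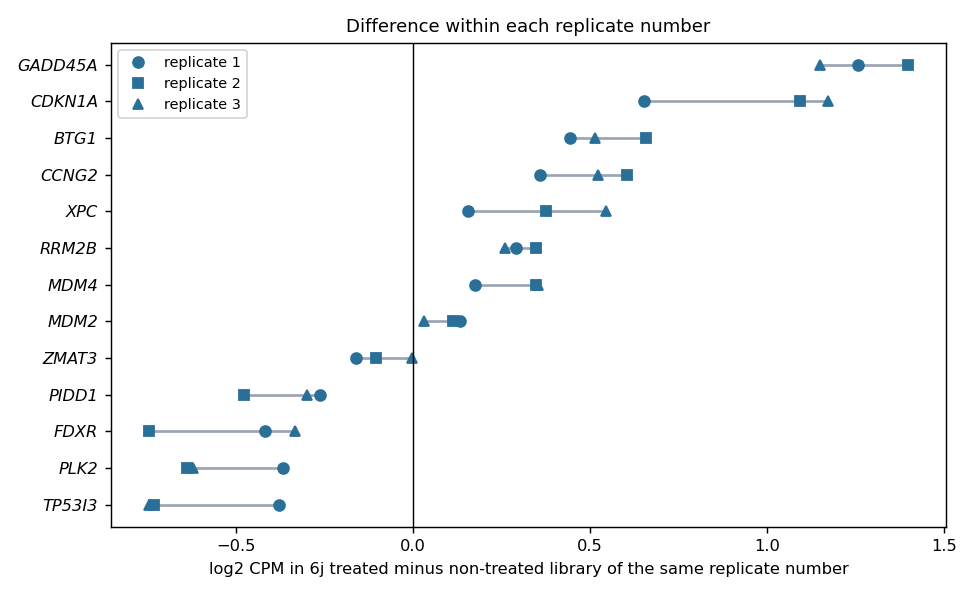
For 13 of the genes, the log2 CPM of the 6j treated library minus that of the non-treated library of the same replicate number is plotted on the horizontal axis, with 1 symbol per replicate number and a grey line over their range. All 3 differences are above 0 for the 8 genes from GADD45A to MDM2 and below 0 for the 5 genes from ZMAT3 to TP53I3, with those of MDM2 and ZMAT3 nearest to 0.

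The intervals show how far a rise could be seen. For 20 of the 28 tested genes the 95% interval, taken gene by gene, lay below a 1.5-fold rise, and for 15 of them it lay within 1.5-fold in both directions. It included a 1.5-fold rise for 6 genes that did not pass the test, CCNG2, BTG1, BTG2, PLK3, ZMAT3 and EDA2R. With the replicate block, intervals computed after the data had been seen lay below a 1.5-fold rise for 22 genes and within 1.5-fold in both directions for 18. Among genes that did not pass with the block, only the intervals of PLK3 and EDA2R still included such a rise. For ZMAT3 the interval with the block ran from 0.854 to 1.03-fold and for BTG2 from 1.01 to 1.43-fold.

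Levels between genes were compared as CPM per kilobase of annotated exons. All annotated exons of a gene were joined for this length, to 13284 bases for MDM2. The transcripts made in these cells may be shorter, so places between genes depend on the annotation. CCNG1 was the highest in non-treated cells, at 47.3 ± 4.54 CPM per kilobase (SD, n = 3), followed by CDKN1A at 27.3 ± 1.49 and TRIAP1 at 26.6 ± 2.55, which differed from each other by less than their spread. In 6j treated cells CDKN1A was at 54.6 ± 12.6 and CCNG1 at 50.7 ± 3.75 CPM per kilobase (SD, n = 3 each), again within their spread. GADD45A moved from place 11 (9.36 ± 0.715) to place 4 (22.7 ± 3.02), beside DRAM1 at 22.2 ± 0.358, and TP53I3 from place 9 (10.1 ± 0.476) to place 18 (6.62 ± 0.859 CPM per kilobase). MDM2 was at place 13 in non-treated and 12 in 6j treated cells, with 7.54 ± 0.672 and 8.03 ± 0.426 CPM per kilobase.

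Other genes of the pathway were counted in 4 lists from general knowledge. Of 11 tested apoptosis targets and sestrins, 2 were higher at an adjusted p under 0.05 and none was lower. That is 18.2%, against 4.79% of all rows in the higher and 9.16% in either direction, and the list had a median log2 change of 0.090. The 2 that rose were SESN2, a sestrin gene that is known to answer to ATF4 as well as p53 (28 ± 3.94 and 77.1 ± 18.0 CPM, log2 fold change 1.46, edgeR adjusted p = 0.0063), and the death receptor gene TNFRSF10B (142 ± 2.87 and 190 ± 16.3 CPM, log2 fold change 0.42, edgeR adjusted p = 0.0198, SD, n = 3 each). The sestrin gene SESN1, driven mainly by p53, was at 17.9 and 18.0 CPM on average (edgeR adjusted p = 0.988). Under the replicate block 4 of the 11 genes passed, all higher, which is 36.4% against 26.9% of all rows, and 1 or 2 passed with any 1 library left out. The 2 that the block added were BBC3 (log2 fold change 0.71, edgeR adjusted p = 0.0617 without and 0.0103 with the block) and PMAIP1 (0.33, 0.404 without and 0.00231 with the block), which encode the apoptosis proteins PUMA and NOXA. SESN1, BBC3, PMAIP1 and the apoptosis genes BAX (log2 fold change −0.056) and FAS (−0.17), neither of which passed with or without the block, were named after their values had been seen.

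Of 43 tested members of a list of other p53 targets, 5 were higher and 1 was lower at an adjusted p under 0.05. That is 14.0% in all, against 9.16% of all rows, and the median log2 fold change was 0.018. The 5 that rose were the stress factor gene ATF3 (log2 fold change 1.6, edgeR adjusted p = 0.00713), the phosphatase gene PTP4A1 (1.16), the calcium channel gene ORAI3 (0.87), ANKRA2 (0.62) and the retinol saturase gene RETSAT (0.35). CMBL, named after its value had been seen, fell by 0.32 on the log2 scale. PTP4A1 did not pass under the replicate block (adjusted p = 0.149), where 13 genes of the list passed (30.2%, against 26.9% of all rows), and 1 to 3 passed with any 1 library left out. The stress cytokine gene GDF15, also named after its values had been seen, had the largest log2 fold change of the list, 2.48, with 18.3, 49.6 and 21.4 CPM in non-treated and 119, 235 and 143 CPM in 6j treated cells. GDF15 missed the threshold without the block (edgeR adjusted p = 0.0617) and passed with it (adjusted p = 4.27e-06). The transcription factor gene ATF4, which is in none of these lists, was at 313, 349 and 290 CPM in non-treated and at 693, 660 and 686 CPM in 6j treated cells, and its part in the rises of GADD45A, CDKN1A, SESN2 and ATF3 was not tested.

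Downstream of p21, p53 is known to lower many cell cycle genes through the DREAM complex. Of 40 such genes, 9 were lower and 1 was higher at an adjusted p under 0.05, which is 25% against 9.16% of all rows. Of all rows, 4.37% passed in the lower and 4.79% in the higher direction. The list had a median log2 change of −0.20, and none of these 10 changes passed 1.5-fold. The 3 libraries of 6j treated cells lay below the 3 of non-treated cells for 22 of the 40 genes, against 15.8% of all rows. KIF20A, a mitotic kinesin gene, was at 138, 153 and 141 CPM in non-treated and 97.6, 88.0 and 102 CPM in 6j treated cells (log2 fold change −0.58, edgeR adjusted p = 0.0085). CCNB1, the cyclin B1 gene, was at 239, 242 and 247 CPM in non-treated and 177, 160 and 179 CPM in 6j treated cells (log2 fold change −0.50, edgeR adjusted p = 0.00957). LMNB1 fell by 0.44, CDK1 fell by 0.46 and CDC20 fell by 0.51 on the log2 scale, and EZH2, named after its value had been seen, rose by 0.31. Of the 40 genes, 1 passed without non-treated replicate 1 or without 6j treated replicate 2, 4 without non-treated replicate 2 and 6 without non-treated replicate 3. The count was 8 without 6j treated replicate 3, 12 without 6j treated replicate 1, and 22 under the replicate block (55%, against 26.9% of all rows).

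Among 19 genes upstream of p53, the checkpoint kinase gene CHEK2 was lower, at 47.7, 37.3 and 38.3 CPM in 6j treated against 67.6, 62.2 and 51.2 CPM in non-treated cells (log2 fold change −0.55, edgeR adjusted p = 0.0342). No gene of this list passed without non-treated replicate 1 or 2 or without 6j treated replicate 2 or 3. The other 18 did not pass, so the share was 5.26%, against 9.16% of all rows. The median log2 fold change of the list was −0.076 in the main fit. Under the replicate block 6 of the 19 passed (31.6%, against 26.9% of all rows).

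**Figure D4:**
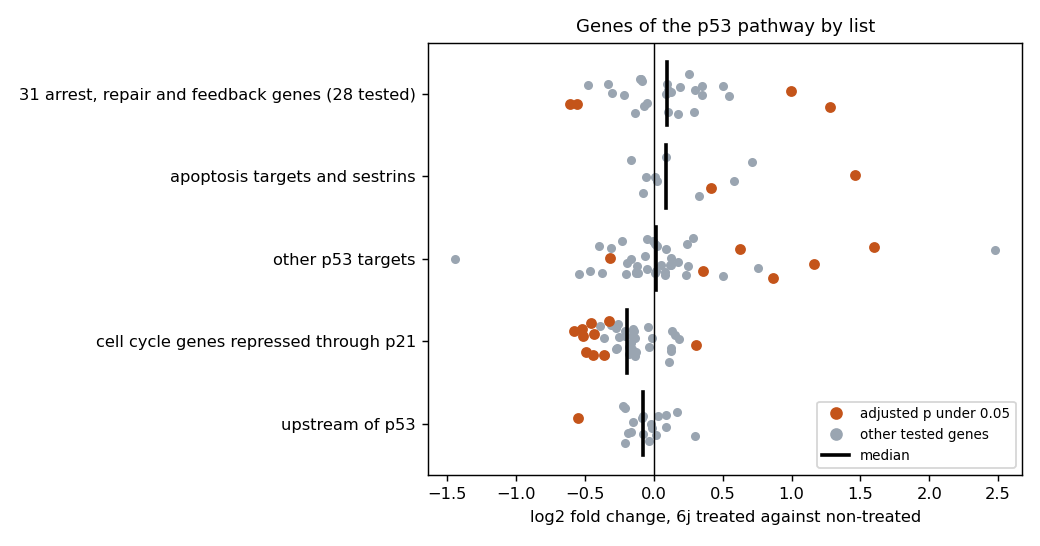
The log2 fold change of every tested gene of 5 lists is plotted on the horizontal axis, 1 row per list with points spread vertically for sight, in orange where the adjusted p was under 0.05 and with a black line at the median. The medians of the p53 target lists are 0.096, 0.090 and 0.018, and that of the cell cycle genes is −0.20.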

How the data were processed

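The deposited table holds 1 column of raw, whole-number counts for each of the 6 libraries, as the authors made it, with no pooling. RNA was enriched with oligo(dT) beads, and the submitters' processing notes list HISAT2, StringTie and GRCh38 without roles or versions. The counting step is not given in the sources used here, and the paper names DESeq2 for DEGs. Here, edgeR 4.0.16 (R 4.3.3) fitted robust quasi-likelihood models to all rows kept by filterByExpr, with TMM factors, no covariate and Benjamini-Hochberg adjustment. DEGs needed both a fold change above 1.5 and an adjusted p under 0.05. CPM are counts scaled to 1000000 of the TMM normalized library, and log2 CPM used a prior count of 2. Standard errors and 95% intervals came from the F statistic. Coordinates, exon lengths and exon overlaps came from GENCODE version 29 (GRCh38), promoter windows from RefSeq.

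The members and lists were chosen with earlier results of these data known. All 31 members are named. Of each other list, up to 5 genes with the smallest adjusted p under 0.05 are named, and further ones are marked. Intervals and floors of 3 counts cover counting error or the spread of these libraries only. Deviations from the group means correlated at 0.171, 0.18 and 0.312 between libraries of the same replicate number, and at −0.231 to 0.0795 between different numbers. Deviations within a group cancel out, so positive values for the same number bring lower ones for different numbers, which are no separate evidence. The main fit did not use the replicate number, and the replicate block was fitted beside it as an alternative. The scripts were tested on simulated data. Alternatives were RLE or upper quartile factors, other filters, other thresholds, DESeq2 1.42.0, leaving out each library, and the replicate block. Leaving out both libraries of replicate 3 and DESeq2 with the block were added after the data had been seen.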

Additional observations from a re-analysis of the deposited data

How the results depend on the processing

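The number of the 31 genes with an adjusted p under 0.05 was 4. It was 7 in DESeq2, 11 with the replicate block, 10 in DESeq2 with the replicate block, 1 with both libraries of replicate 3 left out, and 1 to 4 with 1 library left out. The number of DEGs among them was 3, was 1 with both libraries of replicate 3 left out, and ranged from 1 to 4 with 1 library left out. Over the 4 other lists, 19 genes passed, against 45 with the replicate block, 43 in DESeq2 with the replicate block, 11 with both libraries of replicate 3 left out, and 3 to 18 with 1 library left out. Other factors, filters and thresholds kept these counts within 1.5 times. The rise of GADD45A passed under all 14 alternatives. CDKN1A minus MDM2 ranged from 0.76 to 1.08 and GADD45A minus MDM2 from 1.04 to 1.26 with 1 library left out, and compared by replicate number (replicate block) the exact sign-flip p was 0.25 for each, the smallest that 3 pairs allow. The block changed the test of MDM4, CCNG2, BTG1, XPC, RRM2B, FDXR and PIDD1 as given beside them, and of no other member. PIDD1 was the gene that DESeq2 with the block did not pass. DESeq2 without a block passed MDM4 (adjusted p = 0.0341), BTG1 (0.0158) and XPC (0.0171). Some genes that did not pass changed sign. With 1 library left out, the log2 fold change ranged from −0.43 to 0.23 for ZMAT3 (above 0 without non-treated replicate 3, 6j treated replicate 1 or 6j treated replicate 2), from −0.28 to 0.090 for POLH and from −0.096 to 0.034 for TRIAP1 (both above 0 without non-treated replicate 3), from −0.61 to 0.49 for EDA2R (above 0 without non-treated replicate 3 or 6j treated replicate 1), from −0.23 to 0.0057 for AEN (above 0 without 6j treated replicate 3) and from −0.0084 to 0.16 for TIGAR (below 0 without non-treated replicate 1). With both libraries of replicate 3 left out, it was −0.047 for GADD45B, 0.058 for TRIAP1 and 0.35 for EDA2R. Beyond the fewer libraries, the cause was not tested.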
